A study of Mus musculus with 10 samples.

Results

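The Forkhead transcription factor family was taken as every non-control probe whose gene name in the newer array annotation begins with Fox, followed by a class letter from a to s and a number. This gave 54 of the 41143 probes used, for 38 of 27554 gene names. Of these, 39 probes for 25 genes were well above background, by the scanner software's own flag, on both arrays of at least 1 group. The share of family probes that met this was 72.2%, against 69.9% of all probes. Foxn3, Foxo4 and Foxs1 are carried by the arrays under older names (Ches1, Mllt7 and Fkhl18) and are outside this choice. The names Foxf1a and Foxo3a of the files are given here as Foxf1 and Foxo3.

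RNA from mouse ileum was hybridised to 1-colour Agilent whole-genome arrays, 2 arrays in each of 5 groups. In the Sox2 +DOX group, C57BL/6 mice of 6 to 8 weeks with a tetracycline-inducible Sox2 gene drank doxycycline at 2 mg/ml, in water with 1% sucrose, for 2 days. The Sox2 -DOX group held mice of the same line and age that received no doxycycline, and the labels state no sucrose for them. In Sox2 +DOX against Sox2 -DOX, induced Sox2 and the doxycycline drink therefore cannot be told apart. The labels give an age of 6 to 8 weeks for all 5 groups. The Sox2xOct4 +DOX group carried inducible Sox2 and inducible Oct4 together and had the same treatment as Sox2 +DOX. The Oct4 +DOX group carried inducible Oct4 alone, and the rtTA +DOX group carried only rtTA, the doxycycline-dependent activator that switches such genes on; both had the same treatment. The labels number the arrays of a group 1 and 2 without saying that each held a different mouse, so p-values measure the spread between arrays, which may be technical. Only in Oct4 +DOX did the sex-linked genes given below differ between the 2 arrays, which therefore did not hold the same mouse. The ileum samples hold all cell types of the tissue: in such bulk RNA, fewer cells of a type and less RNA per cell cannot be told apart.

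Forkhead proteins bind DNA through a winged-helix domain and are grouped into lettered classes by the sequence of that domain. Foxa proteins open closed chromatin and pattern the endoderm, Foxo proteins are the nuclear targets of insulin and growth factor signalling, and Foxf and Foxl1 proteins work in the mesenchyme under the gut epithelium. Foxj1 switches on the genes of motile cilia, structures that the ileal epithelium does not normally carry. Sox2 and Oct4 are the DNA-binding factors that the inducible genes encode, and Sox2 is a marker of foregut endoderm, including stomach and oesophagus.

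Of the 25 genes tested, 6 were called in at least 1 comparison, and their probes are shown because every value below rests on them. The first 30 bases of each 60-base probe follow, as the array files list them, with mm8 coordinates of the whole probe; whether a probe lies in coding or untranslated sequence was not examined.
Foxa1, chr12:58459021-58459080, minus strand: ccactccagggggaaaaaaggaagtatcat
Foxa2, chr2:147734403-147734462, minus strand: ccattctggacatggtgaaatccaggtctc
Foxc1, chr13:31816853-31816912, plus strand: gttacggaccaaacaccagaaagtgttcca
Foxj1, chr11:116146990-116147049, minus strand: ggagagactaatatagtgaatgtagttata
Foxo6, chr4:119764718-119764777, minus strand: gtgtcgaggccgtgtagagtgcattgtaca
Foxp1, chr6:98892636-98892695, minus strand: cctttcactcagtcgtacttagtcgtatgt
Between probes of different family members, the longest run of bases in common was 11, for Foxp4 and Foxq1, over 1408 pairs of probes. Foxa2 was measured by 10 spots an array and the others by their own probes.

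The promoters of Foxa1, Foxa2 and Foxc1 are shown because these genes rose in Sox2 +DOX against Sox2 -DOX. Each is RefSeq's window of 300 bases around the gene's start in GRCm38.p6, most of it upstream, and capitals mark the Sox motif CTTTGT, the octamer ATGCNAAT and the forkhead motif TGTTTAC, each searched on both strands.
Foxa1, chr12:57546062-57546361, minus strand: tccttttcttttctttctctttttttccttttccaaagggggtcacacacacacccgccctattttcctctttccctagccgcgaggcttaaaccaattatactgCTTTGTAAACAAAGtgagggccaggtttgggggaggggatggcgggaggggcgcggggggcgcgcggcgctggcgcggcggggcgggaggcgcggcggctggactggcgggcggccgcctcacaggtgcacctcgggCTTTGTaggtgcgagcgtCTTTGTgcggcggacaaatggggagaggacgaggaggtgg
Foxa2, chr2:148045415-148045714, minus strand: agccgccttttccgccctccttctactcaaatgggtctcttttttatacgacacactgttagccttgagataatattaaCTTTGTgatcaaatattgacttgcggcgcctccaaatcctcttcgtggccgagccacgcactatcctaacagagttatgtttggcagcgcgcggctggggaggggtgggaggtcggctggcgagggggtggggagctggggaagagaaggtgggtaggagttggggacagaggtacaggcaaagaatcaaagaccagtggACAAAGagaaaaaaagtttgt
Foxc1, chr13:31806396-31806695, plus strand: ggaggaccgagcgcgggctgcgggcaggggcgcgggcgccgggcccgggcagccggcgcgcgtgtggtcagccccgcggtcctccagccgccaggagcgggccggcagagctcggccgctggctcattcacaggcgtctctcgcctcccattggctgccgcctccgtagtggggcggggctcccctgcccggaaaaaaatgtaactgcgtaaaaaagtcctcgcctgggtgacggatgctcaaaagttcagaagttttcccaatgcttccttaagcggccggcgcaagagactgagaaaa
The Foxa1 window held 4 Sox matches and 1 forkhead match, the last overlapping Sox matches on both sides. Of the 3 windows listed for Foxa2, the one shown held 2 Sox matches and the others held 0. The Foxc1 window held none of the 3 motifs. Of all 32851 windows of this length, 18.7% held the Sox motif, 3.15% the octamer and 3.65% the forkhead motif. Among the 29 windows matched to 24 family genes, 7 held the Sox motif, 0 the octamer and 1 the forkhead motif. These matches describe letters in the window and say nothing of binding.

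The 10 arrays lay on 3 slides. Sox2 +DOX and Sox2 -DOX shared the first, Sox2xOct4 +DOX and rtTA +DOX shared the second, and Oct4 +DOX lay alone on the third. The comparisons of Sox2 +DOX with Sox2 -DOX and of Sox2xOct4 +DOX with rtTA +DOX were therefore each made within 1 slide, and in the others slide and group cannot be told apart. The 75th percentile of signal was 544 to 1613 an array, with 63.5% to 70.5% of probes well above background. The Oct4 gene (Pou5f1) was well above background only on the 2 Oct4 +DOX and the 2 Sox2xOct4 +DOX arrays, where it exceeded rtTA +DOX by at least 4802-fold in the first of these and at least 366-fold in the second. The Sox2 probe was not well above background on any array, so it does not check the Sox2 labels. Sox21, a relative of Sox2, was raised in Sox2 +DOX over Sox2 -DOX by 6.16 on the log2 scale (adjusted p = 0.0026, limma). Sox2xOct4 +DOX exceeded rtTA +DOX by 4.95 (adjusted p = 0.0077, limma). The ileal and epithelial markers Fabp6, Slc10a2, Vil1, Epcam, Cdh1 and Cdx2 were well above background on all 10 arrays. The Y-linked gene Eif2s3y was well above background on all 4 arrays of the first slide and on 0 of 4 of the second. Xist, which female cells express, read -6.01 or lower on the first slide and 2.98 or higher on the second. In Oct4 +DOX, Eif2s3y read 1.78 on array 1 and -7.86 on array 2, and Xist -6.80 and 2.62. By these genes the first slide held males, the second females, and Oct4 +DOX 1 array of each sex. Comparisons across slides therefore also mix sexes, and the part of sex in their results was not tested.

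**Figure D1:**
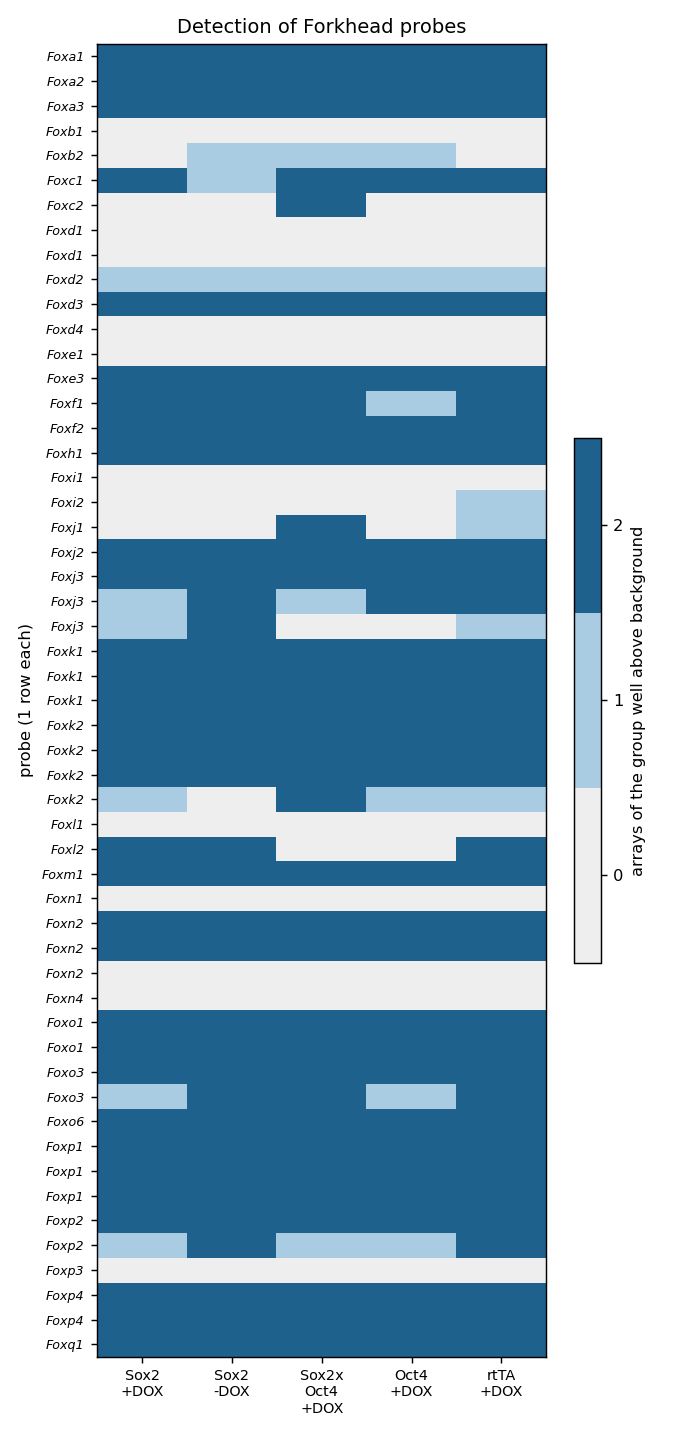
Detection of 53 Forkhead probes, 1 row each, labelled by gene. Columns are the 5 groups, and colour gives how many of the 2 arrays of a group were well above background; of the probes drawn, 29 were so on all 10 arrays and 11 on none.

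The rule of both arrays of at least 1 group separated the family into genes that qualified and genes that did not. Of the 38 genes, 13 did not qualify, among them Foxb1, Foxb2, Foxd1, Foxd2, Foxd4, Foxe1, Foxi1, Foxi2, Foxl1, Foxn1, Foxn4 and Foxp3. They include Foxn1, the thymic epithelial factor, and Foxp3, the factor of regulatory T cells. Foxd2 was well above background on 5 arrays, Foxb2 on 3 and Foxi2 on 1, but never on both arrays of a group. The number of genes well above background on both arrays was 23 in Sox2 +DOX and 22 in Sox2 -DOX, 24 in Sox2xOct4 +DOX and 21 in Oct4 +DOX, and 23 in rtTA +DOX. Foxc2 and Foxj1 qualified through Sox2xOct4 +DOX only, so their levels in that group are part of why they were tested.

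Values below are log2 signal relative to the 75th percentile of the array, and a gene was called when limma's Benjamini-Hochberg adjusted p over 19056 genes was under 0.05. Counts at an unadjusted p under 0.05 are given without the share of all genes at that threshold. Such counts therefore set neither the family nor a list apart from all genes. With Sox2 induced, Foxa1, Foxa2 and Foxc1 rose and Foxo6 fell against Sox2 -DOX, 4 of 25 genes, where 7.83% of all genes were called. With Sox2 and Oct4 induced together, Foxa2, Foxc1, Foxj1 and Foxp1 rose and Foxo6 fell against rtTA +DOX, 5 of 25 genes, where 6.34% of all genes were called. By direction, 3 were higher and 1 lower in Sox2 +DOX, against 3.03% and 4.8% of all genes, and 4 were higher and 1 lower in Sox2xOct4 +DOX, against 3.19% and 3.15%. The median change of the 25 genes was -0.35 in the first comparison, against -0.10 over all genes, and 0.06 in the second, against 0.07. Both comparisons gave the same sign for 18 of the 25 genes, 72%, against 69.6% of all genes; they share no array. Leaving out 1 array lowered the count to 0 without array 1 of Sox2 -DOX in the first comparison, where 165 of 19056 genes were called in all, against 1493. It lowered it to 0 without array 1 of rtTA +DOX in the second, where 105 genes were called in all, against 1208. The family count in the first comparison was 1 without array 1 of Sox2 +DOX (234 of all genes) and 1 without array 2 of Sox2 -DOX (284 of all genes). In the second it was 1 without array 1 of Sox2xOct4 +DOX (360 of all genes), 1 without array 2 of rtTA +DOX (206), and 3 without array 2 of Sox2xOct4 +DOX (1076) or without either Sox2 -DOX array (760 each). Each family gene is given below with the arrays its call rests on.

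**Figure D2:**
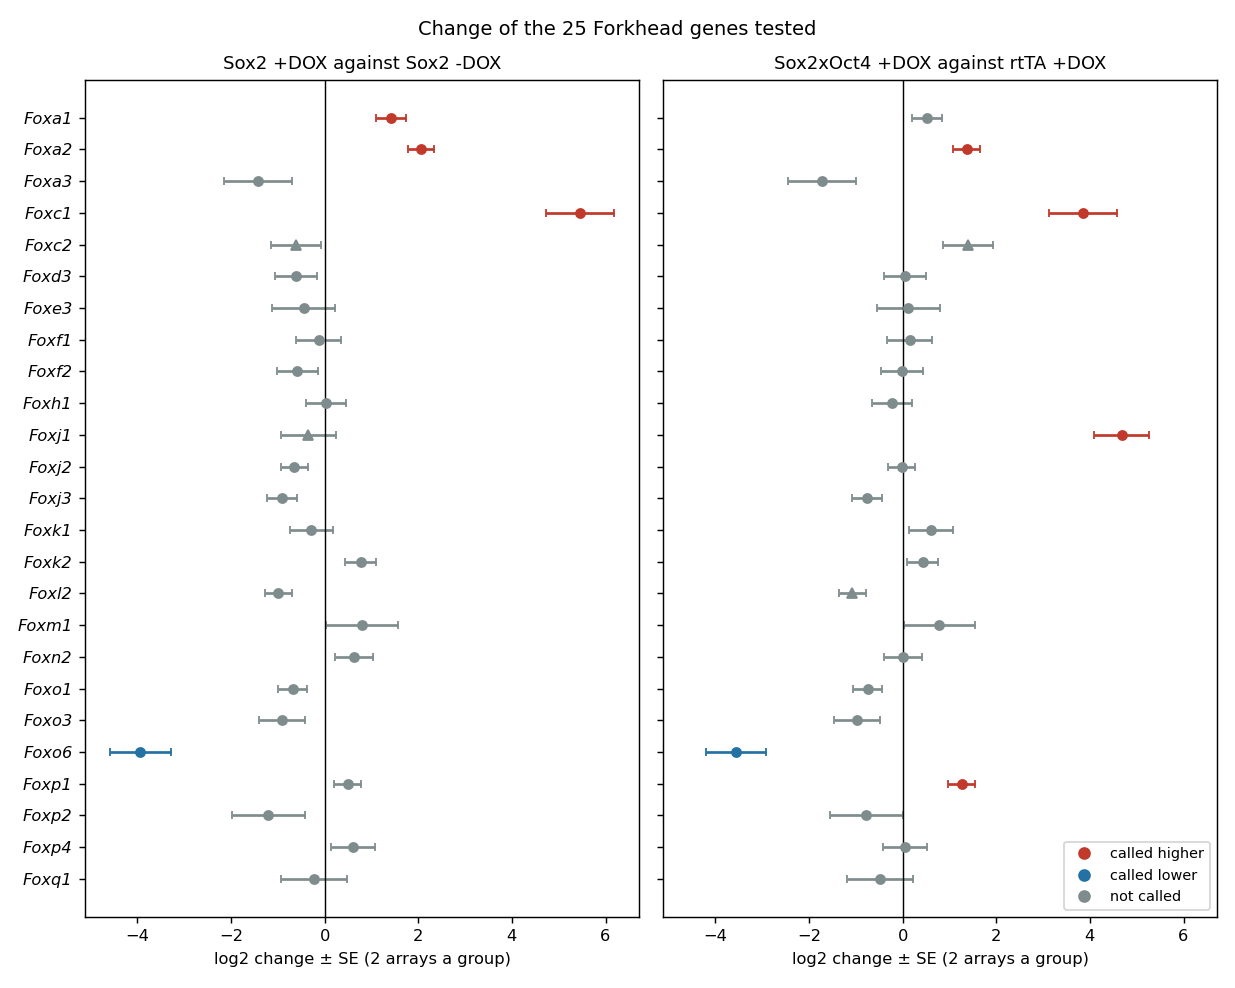
Log2 change with its standard error for the 25 Forkhead genes tested, Sox2 +DOX against Sox2 -DOX on the left and Sox2xOct4 +DOX against rtTA +DOX on the right, 2 arrays a group. Foxa2, Foxc1 and Foxo6 are called on both sides; Foxa1 is called on the left only, and Foxj1 and Foxp1 on the right only. Triangles mark genes not well above background on either array of at least 1 of the groups compared, whose positions rest on background readings.

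Foxa2 was called higher in both groups with inducible Sox2 that were given doxycycline, and Foxa1 in Sox2 +DOX only. Both are endodermal factors. Foxa2, which is needed for foregut endoderm and acts in the secretory cells of the intestine, read 2.15 and 1.74 in Sox2 +DOX, against -0.11 and -0.12 in Sox2 -DOX. It rose by 2.06 ± 0.29 (SE, 2 arrays a group), 4.17-fold, with an adjusted p of 0.0075 by limma. It read 2.23 and 2.35 in Sox2xOct4 +DOX, against 0.70 and 1.13 in rtTA +DOX. This was a rise of 1.37 ± 0.29 (adjusted p = 0.031, limma), and in neither comparison did the groups overlap. The 2 control groups did not read alike for Foxa2: rtTA +DOX was 1.04 above Sox2 -DOX, which passed at an unadjusted p of 0.0063 but not after adjustment (adjusted p = 0.52, limma). Set across slides, Sox2 +DOX exceeded rtTA +DOX by 1.02 (adjusted p = 0.063, limma), which did not pass. The Foxa2 call in Sox2 +DOX was lost without array 1 of Sox2 +DOX (1.86) or either Sox2 -DOX array (2.06 each). The call in Sox2xOct4 +DOX was lost without array 1 of Sox2xOct4 +DOX (1.43) or array 2 (1.31), without array 1 of rtTA +DOX (1.16) or array 2 (1.59), and without either Sox2 -DOX array (1.37 each), and also with no filter on dim probes and in a fit of the compared groups only (1.37 each).

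Foxa1, a close relative that overlaps with Foxa2 in endoderm, read 1.38 and 1.04 in Sox2 +DOX, against -0.23 and -0.17 in Sox2 -DOX. It rose by 1.41 ± 0.32, 2.66-fold (adjusted p = 0.037, limma). Sox2 +DOX was also 1.84 ± 0.32 above rtTA +DOX, which read -0.67 and -0.60 on another slide (adjusted p = 0.015, limma). In Sox2xOct4 +DOX its arrays read 0.26 and -0.50, and the change against rtTA +DOX was 0.51 ± 0.32 (adjusted p = 0.38, limma), which did not pass although the groups did not overlap. The responses of Foxa1 to Sox2 and to Sox2 with Oct4 differed by 0.90 (adjusted p = 0.61, limma), so a difference between them was not shown. The Foxa1 call in Sox2 +DOX was lost without any one of the Sox2 +DOX (1.24 and 1.59), Sox2 -DOX (1.38 and 1.44) or rtTA +DOX arrays (1.41 each). It was also lost with the authors' normalized table (1.47), with no filter on dim probes and in a fit of the compared groups only (1.41 each). Against rtTA +DOX the call was lost without array 1 of Sox2 +DOX (1.67) or array 1 of rtTA +DOX (1.80) or array 2 (1.88).

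Foxa3, which is known best in liver, read -2.93 and -0.88 in Sox2 +DOX, against -0.31 and -0.66 in Sox2 -DOX, and -0.82 and -2.37 in Sox2xOct4 +DOX, against 0.61 and -0.35 in rtTA +DOX. The changes of -1.42 and -1.72 did not pass (adjusted p = 0.25 and 0.20, limma), and the 2 arrays of each induced group lay far apart. Of 16 intestinal secretory genes listed with Foxa1 and Foxa2 from their known link to these factors, 15 were measured. In Sox2 +DOX against Sox2 -DOX their median change was -0.65, where the median of all genes was -0.10. There 0 rose and 2 fell, where 4.8% of all genes were called lower. Those were Pyy, a hormone of the ileal enteroendocrine cell, lower by 1.90 on the log2 scale (3.74-fold, adjusted p = 0.018), and Nts, neurotensin, lower by 3.01 (8.04-fold, adjusted p = 0.0077, limma). In Sox2xOct4 +DOX 1 fell, Pyy again, 3.72-fold lower than in rtTA +DOX (adjusted p = 0.021, limma), with a median of -0.70 against 0.07 over all genes. In that comparison 3.15% of all genes were called lower. In Oct4 +DOX against rtTA +DOX the median of the 15 genes was -0.59, against 0.0082 over all genes. There 11 changes were negative and 4 positive, and 0 were called. The Pyy call in Sox2 +DOX was lost without array 1 of Sox2 +DOX (-1.54) or array 1 of Sox2 -DOX (-1.75) or 2 (-2.06), and that of Nts without array 1 of Sox2 -DOX (-2.73). In Sox2xOct4 +DOX the Pyy call was lost without array 1 of Sox2xOct4 +DOX (-1.63) or array 1 of rtTA +DOX (-1.93) or 2 (-1.86).

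Of 18 stomach and foregut genes listed, 13 were measured. This list, like the others, was chosen with earlier results of these data known. It also holds Sox21, whose rise was given above, so its counts are no independent evidence. In Sox2 +DOX against Sox2 -DOX 5 rose and 0 fell, 10 changes being positive and 3 negative, where 3.03% of all genes were called higher. In Sox2xOct4 +DOX against rtTA +DOX 4 rose and 0 fell, 9 changes being positive and 4 negative, where 3.19% of all genes were called higher. In Oct4 +DOX against rtTA +DOX 2 rose and 0 fell, where 1.01% of all genes were called either way. Lipf, the gastric lipase, was higher by 7.37 and by 10.69 on the log2 scale in Sox2 +DOX and Sox2xOct4 +DOX over their controls (adjusted p = 0.0019 and 4.1e-04, limma). Anxa10, a gastric annexin not well above background in either control group, was higher in Sox2 +DOX by at least 33.0-fold and in Sox2xOct4 +DOX by at least 55.5-fold (adjusted p = 0.0076 and 0.0079, limma), a bound set by the lowest signal well above background on each control array. Trp63, the p63 factor of squamous epithelium, was not well above background in rtTA +DOX, and exceeded it by at least 16.4-fold in Sox2xOct4 +DOX (adjusted p = 0.0012) and at least 5.39-fold in Oct4 +DOX (adjusted p = 0.010, limma). Neither Anxa10 nor Trp63 could qualify through rtTA +DOX, so their levels in other groups are part of why they were tested. The Oct4 +DOX call of Trp63 was lost without array 1 of rtTA +DOX (3.97) or 2 (3.28), and with normexp and quantile normalization (0.53). The Anxa10 call in Sox2 +DOX was lost without array 1 of Sox2 +DOX (6.44) or array 2 of Sox2 -DOX (6.25). The part of these genes in the values of Foxa1 and Foxa2 was not tested.

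**Figure D3:**
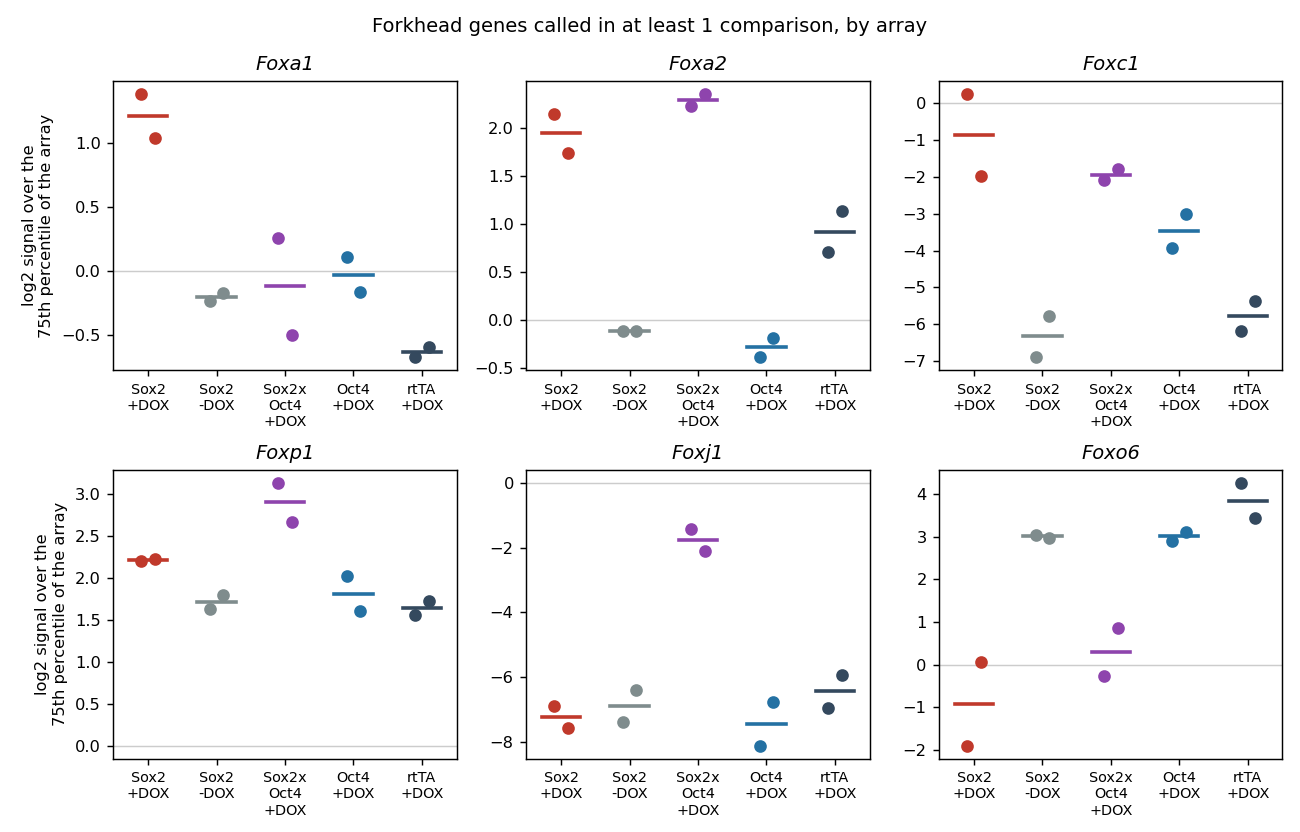
The 6 called Forkhead genes by array. Each point is 1 array, bars are group means of 2 arrays, and the y axis, which differs between panels, is log2 signal relative to the 75th percentile of the array. Foxj1 stands high in Sox2xOct4 +DOX alone, and Foxo6 stands low in Sox2 +DOX and Sox2xOct4 +DOX.

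Foxc1 had the largest rise of the 25 genes in Sox2 +DOX. This factor acts in mesoderm, vessels and the eye, and in skin it is known from hair follicle stem cells. Its probe read 0.25 and -1.98 in Sox2 +DOX, against -6.88 and -5.77 in Sox2 -DOX, where 1 of 2 arrays was well above background. The rise was 5.46 ± 0.73 on the log2 scale, 44.0-fold (adjusted p = 0.0067, limma). In Sox2xOct4 +DOX it read -2.08 and -1.79, against -6.19 and -5.38 in rtTA +DOX. The rise there was 3.85 ± 0.73, 14.4-fold (adjusted p = 0.023, limma). Every array with induced Sox2 was thus above every control array. In Oct4 +DOX Foxc1 read -3.93 and -3.00, between the groups with induced Sox2 and the controls. Its difference from rtTA +DOX was 2.32 ± 0.73, which passed at an unadjusted p of 0.012 and not after adjustment (adjusted p = 0.21, limma). Against rtTA +DOX across slides, Sox2 +DOX was higher by 4.92 (adjusted p = 0.0083, limma).

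With normexp background correction and quantile normalization together, the Foxc1 change was 2.55 in Sox2 +DOX, still called, and 1.57 in Sox2xOct4 +DOX, not called. With quantile normalization of the processed signal alone it was 5.57 and 3.74, both called. Leaving out 1 array kept the change in Sox2 +DOX between 4.35 and 6.57, and the call was lost without array 1 of Sox2 -DOX (4.90) and in a fit of the compared groups only. The call in Sox2xOct4 +DOX was lost without array 1 of Sox2xOct4 +DOX (4.0) or 2 (3.70), or without array 1 of rtTA +DOX (3.45) or 2 (4.26), and that against rtTA +DOX across slides without array 1 of rtTA +DOX (4.52). Of 10 endothelial genes, 0 were called in either comparison (0 and 1 at an unadjusted p under 0.05). Their median change was -0.07 in Sox2 +DOX and 0.64 in Sox2xOct4 +DOX.

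Foxc1 lies beside Foxf2 and Foxq1 on chromosome 13, the probes of the 3 genes spanning 249 kb in mm8. Foxf2, a mesenchymal factor 178 kb from Foxc1, read -0.96 and -0.27 in Sox2 +DOX, against -0.46 and 0.40 in Sox2 -DOX, a change of -0.58 ± 0.44 (adjusted p = 0.43, limma). Foxq1, which is found in stomach, read 0.81 and 1.04 in Sox2 +DOX, against 1.16 and 1.15 in Sox2 -DOX, a change of -0.23 ± 0.70 (adjusted p = 0.85, limma). In Sox2xOct4 +DOX Foxf2 read 0.18 and 1.20, against 0.66 and 0.75 in rtTA +DOX, and Foxq1 read -1.39 and 1.01, against 0.89 and -0.29 in rtTA +DOX. The groups overlapped for both genes. The changes were -0.02 ± 0.44 for Foxf2 and -0.49 ± 0.70 for Foxq1, and neither passed. Neither neighbour was called where Foxc1 was, and the difference between neighbours was not tested.

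Foxo6 was the only family gene called lower. It is the Foxo class member known best in brain, and in liver it promotes glucose production. Its probe read -1.90 and 0.06 in Sox2 +DOX, against 3.04 and 2.97 in Sox2 -DOX. It fell by 3.93 ± 0.64 on the log2 scale, to a 15.3-fold lower signal (adjusted p = 0.013, limma). In Sox2xOct4 +DOX it read -0.28 and 0.86, against 4.27 and 3.44 in rtTA +DOX, and fell by 3.56 ± 0.64, 11.8-fold (adjusted p = 0.021, limma). Oct4 +DOX read 2.90 and 3.12, close to Sox2 -DOX, and its change from rtTA +DOX was -0.84 ± 0.64 (adjusted p = 0.64, limma). All 4 arrays with induced Sox2 were below all 6 others. Against rtTA +DOX across slides, Sox2 +DOX was 27.3-fold lower (adjusted p = 0.0059, limma). The difference between the Sox2 response and the Sox2xOct4 response was -0.37 (adjusted p = 0.94, limma), and its sign turned with the array left out.

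The fall of Foxo6 in Sox2 +DOX ranged from -4.91 to -2.95 as arrays were left out, and its call was lost without array 1 of Sox2 +DOX (-2.95) or array 1 of Sox2 -DOX (-3.90) or 2 (-3.97), and with the authors' normalized table (-3.88) and a fit of the compared groups only. In Sox2xOct4 +DOX the call was lost without array 1 of Sox2xOct4 +DOX (-2.99) or array 1 of rtTA +DOX (-3.14) or 2 (-3.97), and against rtTA +DOX across slides without array 1 of rtTA +DOX (-4.36). Of 18 enterocyte markers, all measured, 17 had a negative change in Sox2 +DOX and 16 in Sox2xOct4 +DOX, with medians of -1.02 and -0.97. Over all genes the medians were -0.10 and 0.07, and 4.8% and 3.15% were called lower. Of the 18 markers, 2 fell in Sox2 +DOX against Sox2 -DOX, Alpi, the intestinal alkaline phosphatase (26.7-fold, adjusted p = 0.014), and Fabp1, a fatty acid binding protein (8.59-fold, adjusted p = 0.032, limma), and 0 were called in Sox2xOct4 +DOX, where 8 passed at an unadjusted p under 0.05. Both calls were lost without array 1 of Sox2 +DOX (-3.77 for Alpi and -3.10 for Fabp1) or either Sox2 -DOX array, and that of Fabp1 also without array 2 of Sox2 +DOX (-3.10). Without array 1 of Sox2 -DOX the changes were -4.45 for Alpi and -2.83 for Fabp1, and without array 2 they were -5.03 and -3.38. The summed signal of the 18 genes was 10.04 to 10.4 on the log2 scale in Sox2 +DOX and 10.8 to 10.9 in Sox2 -DOX. It was 9.77 to 10.4 in Sox2xOct4 +DOX and 10.3 to 10.9 in rtTA +DOX, which overlapped. The part of these markers in the Foxo6 fall was not tested.

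The other Foxo genes measured, Foxo1 and Foxo3, are widely expressed factors that insulin signalling keeps out of the nucleus. Foxo1 read 1.1 and 1.36 in Sox2 +DOX, against 1.86 and 1.96 in Sox2 -DOX, and 1.06 and 1.38 in Sox2xOct4 +DOX, against 1.75 and 2.19 in rtTA +DOX. The groups did not overlap in either comparison. The changes of -0.68 ± 0.32 and -0.75 ± 0.32 did not pass (adjusted p = 0.21 and 0.20, limma), and the second Foxo1 probe gave -0.40 and -0.43. Foxo3 read -5.33 and -4.67 in Sox2 +DOX, against -3.98 and -4.20 in Sox2 -DOX, and -5.97 and -4.53 in Sox2xOct4 +DOX, against -4.59 and -3.98 in rtTA +DOX. It was lower without overlap in the first comparison, and in the second the groups overlapped. The changes were -0.91 ± 0.49 and -0.97 ± 0.49 (adjusted p = 0.27 each, limma), and its second probe gave -1.69 and -0.26. Of 26 genes listed as regulators and targets of Foxo factors, 24 were measured. In Sox2 +DOX 0 rose and 1 fell against Sox2 -DOX: Ccng2, a cyclin that Foxo factors switch on in quiescent cells, was 5.78-fold lower (adjusted p = 0.030, limma). In Sox2xOct4 +DOX 1 rose and 1 fell against rtTA +DOX: Pdk4, a kinase that limits glucose oxidation, was 9.76-fold higher (adjusted p = 0.020), and Cat, catalase, was 3.38-fold lower (adjusted p = 0.038, limma). The median change of the list was -0.32 in Sox2 +DOX and 0.16 in Sox2xOct4 +DOX, where those of all genes were -0.10 and 0.07. Of all genes, 3.03% were called higher and 4.8% lower in the first comparison, and 3.19% and 3.15% in the second. The Ccng2 call was lost without array 1 of Sox2 +DOX (-2.01), array 1 of Sox2 -DOX (-2.18) or 2 (-2.89), or either rtTA +DOX array (-2.53 each). That of Pdk4 was lost without array 2 of Sox2xOct4 +DOX (2.72) or array 1 of rtTA +DOX (2.96) or 2 (3.61). The Cat call was lost without any one of the Sox2xOct4 +DOX (-1.75 and -1.77), rtTA +DOX (-1.48 and -2.04) or Oct4 +DOX arrays (-1.76 each).

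Foxj1 was detected on both arrays in Sox2xOct4 +DOX alone. The probe read -1.44 and -2.11 there, against -6.96 and -5.94 in rtTA +DOX, where 1 of 2 arrays was well above background. The rise was 4.68 ± 0.59 on the log2 scale, 25.5-fold (adjusted p = 0.0062, limma). It was not well above background on any Sox2 +DOX (-6.90 and -7.59), Sox2 -DOX (-7.39 and -6.40) or Oct4 +DOX array (-8.12 and -6.78), so no fold is given between those groups. The difference between the Sox2 response and the Sox2xOct4 response did not pass after adjustment (unadjusted p = 2.6e-04, adjusted p = 0.074, limma), where 0.168% of all genes were called. Its size rests on dim readings in the Sox2 line. With dim signals set to the lowest signal well above background it was -5.06 and passed. That setting gives every dim array a fixed value and takes away spread between arrays, so this pass cannot decide the question. With normexp and quantile normalization the Foxj1 rise in Sox2xOct4 +DOX was 1.63 and still called. Its call was lost without array 1 of rtTA +DOX (4.16).

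Of 20 genes of the motile cilium listed as targets of Foxj1 or parts of the cilium, 14 were measured. In Sox2xOct4 +DOX 1 rose and 0 fell against rtTA +DOX, where 3.19% of all genes were called higher. There were 10 positive changes and a median of 0.23, where that of all genes was 0.07. The gene called was Dnah5, an outer dynein arm heavy chain, which averaged -1.92 ± 1.94 in Sox2xOct4 +DOX and -7.29 ± 1.46 in rtTA +DOX (SD, n = 2 arrays each). It was 41.3-fold higher (adjusted p = 0.035, limma), with 1 of 2 rtTA +DOX arrays well above background. Dnah11, another dynein heavy chain, averaged -3.95 ± 0.51 in Sox2xOct4 +DOX and -8.38 ± 1.38 in rtTA +DOX, at least 6.89-fold apart, and did not pass (adjusted p = 0.13, limma). Dnah5 and Dnah11 qualified through Sox2xOct4 +DOX only, so their levels in that group are part of why they were tested. Tekt1, a tektin of the cilium shaft, was at least 1.72-fold higher and did not pass (adjusted p = 0.18, limma). The number of these 14 genes well above background on both arrays was 11 in Sox2xOct4 +DOX, 3 in Oct4 +DOX and 10 in rtTA +DOX. In Sox2 +DOX against Sox2 -DOX 0 of the 14 were called, 4 passed at an unadjusted p under 0.05, and the median was -0.49, where that of all genes was -0.10. The Dnah5 call was lost without array 1 of Sox2xOct4 +DOX (3.99), array 1 of rtTA +DOX (6.4) or 2 (4.34), or either Sox2 -DOX array (5.37 each), and with normexp and quantile normalization (1.69). Dnah11 passed when either Oct4 +DOX array was left out.

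**Figure D4:**
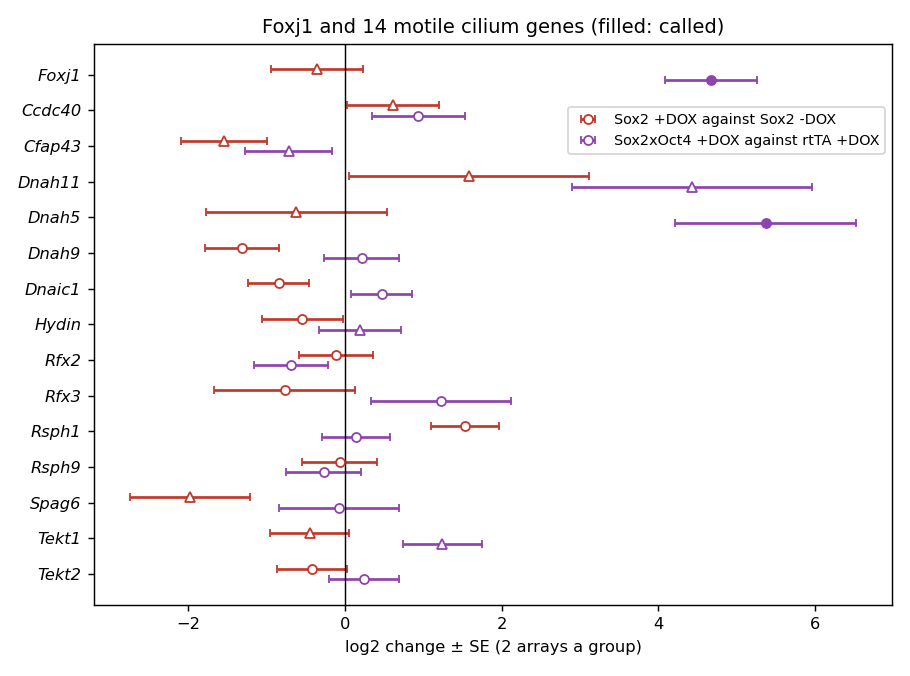
Log2 change with its standard error for Foxj1 and the 14 motile cilium genes measured, for Sox2 +DOX against Sox2 -DOX and Sox2xOct4 +DOX against rtTA +DOX, 2 arrays a group. Filled points are called; Foxj1 and Dnah5 are filled for Sox2xOct4 +DOX. Triangles mark genes not well above background on either array of at least 1 of the groups compared, whose positions rest on background readings; for Dnah11 in Sox2xOct4 +DOX only the bound of at least 6.89-fold holds.

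The Foxp class acts in lung, gut muscle and lymphocytes as repressors. Foxp1 read 3.13 and 2.66 in Sox2xOct4 +DOX, against 1.55 and 1.72 in rtTA +DOX. It rose by 1.26 ± 0.29, 2.40-fold (adjusted p = 0.042, limma). In Sox2 +DOX it read 2.20 and 2.22, against 1.63 and 1.80 in Sox2 -DOX, a change of 0.50 ± 0.29 that did not pass (adjusted p = 0.30, limma), although the groups did not overlap. The responses differed by -0.76 (adjusted p = 0.63, limma), so a difference was not shown. The other Foxp1 probes gave 0.79 and 1.26 in Sox2xOct4 +DOX and did not pass (adjusted p = 0.20 and 0.074 over all probes, limma), so all 3 probes were positive. The call was lost without array 1 of Sox2xOct4 +DOX (1.03), array 1 of rtTA +DOX (1.18) or 2 (1.35), or any one of the 4 arrays of the Sox2 line (1.26 each), and also with no filter on dim probes and in a fit of the compared groups only (1.26 each) or with the replicate number as a block. Foxp2 read -4.04 and -5.33 in Sox2 +DOX, against -3.06 and -3.91 in Sox2 -DOX, and -4.34 and -1.85 in Sox2xOct4 +DOX, against -2.62 and -2.02 in rtTA +DOX. It changed by -1.20 ± 0.78 in Sox2 +DOX against Sox2 -DOX and by -0.78 ± 0.78 in Sox2xOct4 +DOX against rtTA +DOX. Foxp4 changed by 0.61 ± 0.47 and 0.06 ± 0.47, and none of these passed. The second probes gave -1.23 and -1.18 for Foxp2, and 0.35 and -0.08 for Foxp4.

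Foxp3, which defines regulatory T cells, was not well above background on any array. Of 12 genes listed with it, 9 were measured, of which 1 rose and 2 fell in Sox2 +DOX against Sox2 -DOX, and 1 rose in Sox2xOct4 +DOX against rtTA +DOX. Of all genes, 3.03% were called higher and 4.8% lower in the first comparison, and 3.19% and 3.15% in the second. Gpr83, a receptor of regulatory T cells that other tissues also express, was 12.04-fold higher in Sox2 +DOX (adjusted p = 0.0027, limma), while Icos and Il2rb, receptors of activated T cells, were 2.51-fold and 5.08-fold lower (adjusted p = 0.039 and 0.019, limma). Ikzf2 was 4.79-fold higher in Sox2xOct4 +DOX (adjusted p = 0.043, limma). Of 15 T cell markers, 6 fell in Sox2 +DOX against Sox2 -DOX, where 4.8% of all genes were called lower. The median of these markers was -1.75, against -0.10 over all genes. In Sox2xOct4 +DOX against rtTA +DOX 0 of these markers were called, 6 passed at an unadjusted p under 0.05, and the median was -0.63. In Oct4 +DOX against rtTA +DOX 0 were called, with 14 negative changes and a median of -1.12. Between the controls, rtTA +DOX against Sox2 -DOX, 0 were called, with 14 negative changes and a median of -0.73. The summed signal of the T cell markers was 3.30 to 4.17 on the log2 scale in Sox2 +DOX and 5.82 to 6.15 in Sox2 -DOX. The part of these markers in the values of Foxo1 and the Foxp genes was not tested. Of 13 macrophage and granulocyte genes measured, 2 rose and 0 fell in Sox2 +DOX against Sox2 -DOX, Cd68 and S100a9, while 9 changes were negative and the median was -0.27. In Sox2xOct4 +DOX against rtTA +DOX 2 rose and 0 fell, S100a8 and S100a9, with a median of 0.03. S100a9, a granulocyte protein, was 7.07-fold higher in Sox2 +DOX, 41.8-fold in Sox2xOct4 +DOX and 14.7-fold in Oct4 +DOX (adjusted p = 0.027, 0.0036 and 0.024, limma). Its call in Sox2 +DOX was lost without array 1 of Sox2 +DOX (2.31) or array 1 (2.26) or 2 (3.39) of Sox2 -DOX, and its call in Oct4 +DOX without array 2 of that group (3.21) or array 1 (3.71) or 2 (4.05) of rtTA +DOX. The Sox2 +DOX calls of S100a9 and Cd68 were also lost with the authors' normalized table (2.88 and 2.37) and in a fit of the compared groups only. The Cd68 call was lost without array 1 of Sox2 +DOX (2.01) or of Sox2 -DOX (1.84), and that of S100a8 without array 2 of Sox2xOct4 +DOX (4.08) or array 1 (4.83) or 2 (4.55) of rtTA +DOX. Of 11 B cell and plasma cell genes, 10 changes were negative in Sox2 +DOX against Sox2 -DOX, with a median of -0.93, and 1 gene was called, Blnk, which rose (3.48-fold, adjusted p = 0.029, limma) and lost its call without any one of the Sox2 +DOX (1.76 and 1.84) or Sox2 -DOX arrays (1.78 and 1.82). In Sox2xOct4 +DOX 0 were called by limma and 3 passed at an unadjusted p under 0.05. The Icos call was lost when any 1 of 8 arrays was left out, with changes of -1.35 to -1.30, and in 7 other settings, with changes as small as -0.75 with normexp and quantile normalization. The Il2rb call was lost without array 1 of Sox2 +DOX (-1.72) or array 1 of Sox2 -DOX (-2.26) or 2 (-2.43). The Ikzf2 call was lost without array 1 of Sox2xOct4 +DOX (1.79), array 1 of rtTA +DOX (2.68) or 2 (1.84), or any one of the 4 arrays of the first slide (2.26 each).

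Foxm1 drives genes of mitosis in dividing cells. It read 1.03 and 0.04 in Sox2 +DOX, against -0.47 and -0.06 in Sox2 -DOX, and 1.48 and -0.87 in Sox2xOct4 +DOX, against -0.94 and -0.02 in rtTA +DOX. The 2 arrays of each induced group differed widely, and the changes of 0.80 ± 0.77 and 0.79 ± 0.77 did not pass (adjusted p = 0.53 and 0.58, limma). Of 22 mitotic genes listed with it, all measured, 0 were called in either comparison, 5 and 0 passed at an unadjusted p under 0.05, and all 22 changes were positive in both. The medians were 1.12 in Sox2 +DOX and 0.56 in Sox2xOct4 +DOX, where those of all genes were -0.10 and 0.07. Their summed signal was 7.14 to 8.21 on the log2 scale in Sox2 +DOX, against 6.60 to 6.72 in Sox2 -DOX. In Sox2xOct4 +DOX it was 6.42 to 7.87, which overlapped the 6.19 to 7.17 of rtTA +DOX.

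The mesenchymal members Foxf1, Foxf2 and Foxc2 did not pass in any comparison. Foxf1, which the subepithelial mesenchyme expresses in answer to hedgehog signals, read -5.61 and -5.33 in Sox2 +DOX, against -5.78 and -4.91 in Sox2 -DOX, and -5.05 and -4.34 in Sox2xOct4 +DOX, against -4.54 and -5.15 in rtTA +DOX. The groups overlapped, and it changed by -0.13 ± 0.47 in Sox2 +DOX against Sox2 -DOX and by 0.15 ± 0.47 in Sox2xOct4 +DOX against rtTA +DOX. Foxl1, a marker of the cells that line the crypts, lies with Foxf1 and Foxc2 within 42.0 kb on chromosome 8 (mm8) and was not well above background on any array. Foxc2, a factor of lymphatic vessels, read -6.41 and -4.91 in Sox2xOct4 +DOX, against -6.87 and -7.24 in rtTA +DOX, at least 1.99-fold higher (adjusted p = 0.16, limma). Of 20 mesenchymal genes and hedgehog pathway members listed with these factors, 15 were measured. In Sox2 +DOX 0 of them passed limma's test against Sox2 -DOX, with 0 at an unadjusted p under 0.05. In Sox2xOct4 +DOX, where 3.15% of all genes were called lower, 1 fell against rtTA +DOX, Ihh, the hedgehog ligand of the intestinal epithelium (4.16-fold, adjusted p = 0.024, limma). Its call was lost without array 1 of Sox2xOct4 +DOX (-2.31) or 2 (-1.81) or array 1 of rtTA +DOX (-2.33) or 2 (-1.78). Of 10 smooth muscle genes, 0 were called by limma in either comparison (2 and 0 at an unadjusted p under 0.05), with medians of -1.27 and -0.62, and their part in the mesenchymal values was not tested.

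The remaining genes tested were Foxd3, Foxe3, Foxh1, Foxj2, Foxj3, Foxk1, Foxk2, Foxl2 and Foxn2, and none was called in any comparison. Foxj3, a factor of muscle and germ cells, read 1.88 and 2.23 in Sox2 +DOX, against 3.24 and 2.69 in Sox2 -DOX, and 2.48 and 2.29 in Sox2xOct4 +DOX, against 3.40 and 2.89 in rtTA +DOX. The groups did not overlap, and the changes of -0.91 ± 0.32 and -0.76 ± 0.32 did not pass (adjusted p = 0.12 and 0.20, limma). Its other probes gave -1.01 and -1.15 in the first comparison and -0.97 and 0.29 in the second. The 0.29 came from a probe not well above background in Sox2xOct4 +DOX. Foxl2, the ovarian factor, was at -5.68 and -5.53 in Sox2 +DOX, against -4.60 and -4.63 in Sox2 -DOX, and its change of -0.99 ± 0.29 did not pass (adjusted p = 0.075, limma). It was at least 1.48-fold lower in Sox2xOct4 +DOX, where it was not well above background, than in rtTA +DOX (adjusted p = 0.067, limma). It also differed between the control groups, rtTA +DOX being lower than Sox2 -DOX by 1.22 at an unadjusted p of 0.0028 and an adjusted p of 0.45 (limma). Foxh1, the partner of Smad proteins in nodal signalling, read 1.1 and 1.32 in Sox2 +DOX, against 1.22 and 1.14 in Sox2 -DOX, and 0.59 and 1.59 in Sox2xOct4 +DOX, against 1.14 and 1.5 in rtTA +DOX. The groups overlapped in both, with changes of 0.03 ± 0.42 and -0.23 ± 0.42.

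The widely expressed Foxk1 and Foxk2 repress starvation genes together with chromatin regulators. Foxk2 read 1.33 and 0.48 in Sox2 +DOX, against 0.03 and 0.23 in Sox2 -DOX, and 1.14 and 0.83 in Sox2xOct4 +DOX, against 0.64 and 0.47 in rtTA +DOX. For this probe, all 4 arrays with induced Sox2 were above both control arrays of their slide, but the changes of 0.77 ± 0.33 and 0.43 ± 0.33 did not pass (adjusted p = 0.18 and 0.48, limma). Its other 3 probes gave 0.38, 0.60 and 0.57 in the first comparison and 1.71, 0.05 and -0.32 in the second. Foxk1 read -4.17 and -3.67 in Sox2 +DOX, against -3.73 and -3.54 in Sox2 -DOX, and -3.97 and -2.90 in Sox2xOct4 +DOX, against -4.18 and -3.90 in rtTA +DOX, with changes of -0.28 ± 0.47 and 0.61 ± 0.47. The other Foxk1 probes gave 0.17 and -0.27 in the first comparison and 0.29 and -0.09 in the second. Foxj2, another widely expressed member, read 0.19 and 0.71 in Sox2 +DOX, against 1.02 and 1.16 in Sox2 -DOX, and 0.68 and 0.72 in Sox2xOct4 +DOX, against 0.91 and 0.53 in rtTA +DOX. It was lower without overlap in the first comparison and overlapped in the second, and neither change passed (adjusted p = 0.20 and 0.98, limma). Foxn2 read 0.87 and 1.11 in Sox2 +DOX, against 0.20 and 0.52 in Sox2 -DOX, and 0.31 and -0.84 in Sox2xOct4 +DOX, against -0.10 and -0.46 in rtTA +DOX. By this probe Foxn2 was higher without overlap in the first comparison only, and its changes of 0.63 ± 0.40 and 0.01 ± 0.40 did not pass. The second Foxn2 probe gave -0.37 and 0.37, and was lower without overlap in the first comparison. Foxd3, a neural crest factor, changed by -0.60 ± 0.45 and 0.06 ± 0.45, and Foxe3, a lens factor 18.4 kb from Foxd2 on chromosome 4 (mm8), by -0.44 ± 0.67 and 0.12 ± 0.67. Foxd3 read -5.12 and -5.73 in Sox2 +DOX, against -4.93 and -4.72 in Sox2 -DOX, and -5.48 and -4.43 in Sox2xOct4 +DOX, against -5.42 and -4.60 in rtTA +DOX. In Oct4 +DOX these 6 genes changed against rtTA +DOX by 0.80 for Foxk1, 0.07 for Foxk2, 0.62 for Foxj2, 0.46 for Foxn2, 0.09 for Foxd3 and 0.24 for Foxe3, and none passed. Of the 9 genes with several probes that qualified, all probes of a gene gave the same sign for 7 in Sox2 +DOX against Sox2 -DOX and for 5 in Sox2xOct4 +DOX against rtTA +DOX.

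With Oct4 induced alone, 0 of the 25 genes were called against rtTA +DOX by limma, where 1.01% of all genes were called. At an unadjusted p under 0.05, 1 was higher, Foxc1, and 2 were lower, Foxa2 (-1.20 ± 0.29, adjusted p = 0.10) and Foxp2 (-1.83 ± 0.78, adjusted p = 0.36, limma). Foxa2 read -0.38 and -0.18 in Oct4 +DOX, which lies near the -0.11 and -0.12 of Sox2 -DOX and below the 0.70 and 1.13 of rtTA +DOX. The 2 control groups set against each other, rtTA +DOX against Sox2 -DOX, gave 0 calls among the 25 genes and 0% of all genes by limma, with 2 family genes, Foxa2 and Foxl2, at an unadjusted p under 0.05. In Sox2 +DOX against rtTA +DOX 3 of the 25 were called, Foxa1, Foxc1 and Foxo6, where 8.37% of all genes were called. This comparison shares its Sox2 +DOX arrays with the first and its rtTA +DOX arrays with the others, so the values are given side by side and not counted as separate evidence. Its count was 0 without array 1 of rtTA +DOX and 5 without either Sox2xOct4 +DOX array, where 195 and 2178 of all genes were called, against 1595. The test of the difference between the Sox2 response and the Sox2xOct4 response called 0 of the 25 by limma, with Foxj1 and Foxc2 (adjusted p = 0.45) at an unadjusted p under 0.05. The responses also differ in slide, in sex by Eif2s3y and Xist, and in their control, without doxycycline in the first and with it in the second.

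The groups whose arrays did not overlap were many among all genes, so non-overlap alone sets no family gene apart. In Sox2 +DOX against Sox2 -DOX 19 of the 25 genes did not overlap, where 66.4% of all genes did not. In Sox2xOct4 +DOX against rtTA +DOX 12 did not, where 52.7% of all genes did not.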

How the data were processed

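The 10 arrays were read from scanner output in which, per the file headers, the authors' Agilent Feature Extraction 9.5.3.1 (slide 1), 10.7.1.1 (slide 2) and 10.7.3.1 (slide 3) had written a background-subtracted processed signal (intensity) for each of 45018 spots. The submitters' processing notes name version 9.1. The authors' deposited table for the 4 TetON-Sox2 arrays holds raw and normalized signal on a linear scale and served as an alternative. Members and gene lists were chosen with earlier results of these data known. Control spots (1639) and 45 to 65 flagged spots an array were left out, spots of a probe were averaged, and log2 intensity minus the array's 75th percentile was taken. Of 41143 probes, 28761 had both arrays of some group well above background. The brightest such probe stood for each of 19056 genes; 33000 probes were named through RefSeq and the rest keep the file's name. limma 3.58.1 in R 4.3.3 fitted 1 mean per group over all 10 arrays (5 residual and 3.3 prior degrees of freedom). p-values were adjusted over all genes and called under 0.05. A gene not well above background in a whole group has only a bound there, against the lowest signal well above background. With arrays, the number per group limits the precision. The fit was tested on simulated data. Genes named are the family members called in any comparison, the other members tested by their values (per array for the 12 brightest and those with known roles), and up to 4 called genes of a list. Replicate numbers were not used as pairs. 1 member is not reported here by name.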

Additional observations from a re-analysis of the deposited data

Results flagged for a closer look

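The change of Trp63, the p63 factor of squamous epithelium and no Forkhead gene, differed between Sox2 +DOX against Sox2 -DOX and Sox2xOct4 +DOX against rtTA +DOX by a test of the difference of the responses (adjusted p = 0.0228, limma), which stood out because the test itself passed. The gene was not well above background in rtTA +DOX, so the size of that difference has no exact value. Its level in other groups is part of why it was tested. The 2 responses also differ in slide, in sex by Eif2s3y and Xist, and in their control. The call was lost without any one of 7 arrays and with normexp background correction and quantile normalization.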

How the results depend on the processing

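Over 12 calls of family genes, 241 values under other settings gave 190 that kept the call, 51 that lost it and 0 that changed sign. These values are not separate checks. Slide as a block repeated the fit reported, and leaving out either array of a group not compared gave the same result. For counts of family genes called, Sox2 +DOX against Sox2 -DOX gave 2 in the authors' normalized table and 1 with only the groups compared, where 693 and 640 of 19056 genes were called in all against 1493, and 0 to 4 as arrays were left out. Sox2xOct4 +DOX against rtTA +DOX gave 3 with no filter on dim probes (776 of 27554 in all) and 3 with only the groups compared (473 of 19056, against 1208), and 0 to 5 as arrays were left out. Sox2 +DOX against rtTA +DOX gave 5 with a variance trend (2029 in all, against 1595) and 0 to 5 as arrays were left out. The difference of responses gave 1, Foxj1, with dim signals raised to a floor (48 in all, against 32), and 0 as arrays were left out. That floor fixes the dim Foxj1 readings, so this pass cannot decide the question. The causes were not tested, beyond fewer arrays or genes entering the fit.

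With the replicate number as a block, the family counts were 4 for Sox2 +DOX against Sox2 -DOX, 4 for Sox2xOct4 +DOX against rtTA +DOX, 3 for Sox2 +DOX against rtTA +DOX and 0 for the others; Foxp1 lost its call in Sox2xOct4 +DOX (1.26). Same-numbered arrays deviated together with r = 0.0472 in the first comparison and 0.243 in the second; these are 2 pairs, which do not settle a pairing.

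Values that changed sign were all of uncalled results. Foxj1 in Sox2 +DOX against Sox2 -DOX was 0.013 with normexp and quantile normalization, 0.00439 with quantile normalization and, as arrays were left out, -0.85 to 0.15. Against rtTA +DOX, Foxj1 with that floor was 0.10 in Sox2 +DOX and 0.47 in Oct4 +DOX, and 0.018 in Oct4 +DOX with normexp. As arrays were left out, Foxm1 ran from -0.39 to 1.96 in Sox2xOct4 +DOX against rtTA +DOX and from -0.23 to 0.90 in Oct4 +DOX. In Oct4 +DOX, Foxp1 ran from -0.028 to 0.38 and Foxl2 from -0.42 to 0.23, and Foxl2 was 0.031 with normexp. The Foxo6 difference of responses ran from -1.35 to 0.60.

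Quantile normalization and normexp moved the median change of all genes in Sox2 +DOX against Sox2 -DOX to 0.0046 and 0.0047, against -0.10. Over all genes they called 720 higher and 831 lower, and 939 higher and 969 lower, against 578 and 915 in the fit reported.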
